A study of Mus musculus with 16 samples.

Results

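The regions described here are stretches of the genome in which the monoubiquitin mark of histone H2A (H2AK119ub1) was listed in hematopoietic stem cells (HSCs) of aged mice but not of young mice, and which lay within chromatin marked by trimethylation of histone H3 at lysine 27 (H3K27me3). They were selected on 2 peak calls. A region of the aged H2AK119ub1 list on chromosomes 1 to 19 was taken when it shared no base with the young H2AK119ub1 list, and when it shared at least 1 bp with the H3K27me3 list of either age. Of 16796 aged regions on these chromosomes (17771 in the whole list), 15549, or 92.6%, were absent from the young list and are called gained. Of the gained regions, 6331, or 40.7%, lay inside H3K27me3. The young list was much the shorter, with 2535 regions over 0.941 Mb on these chromosomes against 16796 regions over 7.19 Mb in the aged list. Both shares follow from the choice of the regions and the sizes of the lists, and nothing is read from them.

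HSCs of female C57BL/6 mice, the bone marrow cells from which blood is made, were compared between young mice (10-week-old) and aged mice (20-month-old). Bone marrow of several mice was pooled before sorting, and the sorted cells were Sca-1+ and c-kit+, lacked lineage markers, IL-7 (as the label has it), CD34, CD48 and Flt3, and carried CD150. Chromatin immunoprecipitation with sequencing (ChIP-seq) was performed with antibodies against H2AK119ub1, H3K27me3 and H3K4me3, each mark having 2 libraries at either age beside 2 of input. The peaks came as a single pooled list for each mark at each age, so a gain is a difference between 2 lists and no difference between the ages could be tested.

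H2AK119ub1 is laid down by Polycomb repressive complex 1 (PRC1) through its E3 ligases RING1A and RING1B, and H3K27me3 by Polycomb repressive complex 2 (PRC2) through EZH1 and EZH2. Each complex can bind the mark of the other, so that both marks tend to lie over the same CpG-rich promoters of silent developmental genes. In blood stem cells the complexes are known for holding down lineage factors and the cell cycle inhibitors of the Ink4a-Arf locus. H3K4me3 marks the start sites of active genes, and a promoter with both H3K4me3 and H3K27me3 is called bivalent.

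The sequences of 5 of the highest-ranked gained regions inside H3K27me3 show how different their base composition was. Regions were ranked by −log10 q, where q is the peak caller's p-value after correction for multiple testing, and those that overlapped an untranslated region (UTR) were passed over. For each, the 150 bases with the most CpG dinucleotides are given on the forward strand of mm10, with every CpG in capitals. The regions near Tcf21 and in an intron of Cfdp1 each held 2 CpG in these 150 bases and the region at the promoter of Ovol1, a zinc finger factor of epithelia, held 13.
Tcf21, chr10:22820300-22820449: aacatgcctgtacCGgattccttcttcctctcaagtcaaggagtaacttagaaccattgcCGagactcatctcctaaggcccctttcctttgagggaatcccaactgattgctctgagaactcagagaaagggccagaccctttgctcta
Nhlh2, chr3:102025085-102025234: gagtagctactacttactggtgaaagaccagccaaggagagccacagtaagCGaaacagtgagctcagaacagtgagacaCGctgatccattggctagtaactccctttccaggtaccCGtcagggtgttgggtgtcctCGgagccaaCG
Cfdp1, chr8:111813502-111813651: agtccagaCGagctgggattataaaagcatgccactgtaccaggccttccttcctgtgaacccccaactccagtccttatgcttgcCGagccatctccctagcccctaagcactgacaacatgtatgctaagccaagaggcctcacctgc
Ovol1, chr19:5561149-5561298: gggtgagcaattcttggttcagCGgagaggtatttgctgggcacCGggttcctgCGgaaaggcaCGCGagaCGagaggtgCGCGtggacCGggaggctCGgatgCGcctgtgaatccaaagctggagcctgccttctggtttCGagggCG
Hmx1, chr5:35398720-35398869: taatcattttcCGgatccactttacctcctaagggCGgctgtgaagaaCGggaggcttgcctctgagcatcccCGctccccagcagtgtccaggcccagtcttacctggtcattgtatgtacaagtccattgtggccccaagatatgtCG

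From the widest gained regions inside H3K27me3, 4 are shown in the same form as the CpG-dense stretches of long regions at developmental genes. Their densest 150 bases held 10 to 14 CpG, but a long region offers more stretches to choose from. Over the whole region the ratio of observed to expected CpG went from 0.199 in Tbx15 to 0.486 in Pax6, and among the regions shown above from 0.192 in Cfdp1 to 0.503 at Ovol1. The stretch within Pax6 held 11 CpG at a GC content of 50.0%.
Nr2f2, chr7:70325385-70325534: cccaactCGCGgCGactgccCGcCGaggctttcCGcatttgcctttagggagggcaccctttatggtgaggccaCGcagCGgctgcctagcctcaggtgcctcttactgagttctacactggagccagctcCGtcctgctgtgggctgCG
Tbx15, chr3:99248556-99248705: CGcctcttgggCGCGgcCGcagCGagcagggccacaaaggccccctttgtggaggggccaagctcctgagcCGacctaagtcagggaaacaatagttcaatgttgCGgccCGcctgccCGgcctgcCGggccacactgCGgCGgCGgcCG
Vax2, chr6:83710647-83710796: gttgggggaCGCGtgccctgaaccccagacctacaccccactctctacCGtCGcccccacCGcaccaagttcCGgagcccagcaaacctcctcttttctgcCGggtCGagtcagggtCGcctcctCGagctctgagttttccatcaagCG
Pax6, chr2:105688121-105688270: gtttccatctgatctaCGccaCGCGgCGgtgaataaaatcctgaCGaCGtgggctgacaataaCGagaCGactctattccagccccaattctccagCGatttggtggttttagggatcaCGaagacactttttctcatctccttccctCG

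H2AK119ub1 regions were short, with a median width of 327 bp over all aged regions and 320 bp in the young list. The gained regions inside H3K27me3 were wider, with a median of 386 bp (95% interval from order statistics 378 to 392). The narrowest of them spanned 200 bp. The gained regions inside H3K27me3 had a median fold enrichment over background of 3.27 (3.26 to 3.28) and a median −log10 q of 1.82. Gained regions outside H3K27me3 had a median width of 285 bp, a fold enrichment of 3.18 and a −log10 q of 1.63. The 1163 regions inside H3K27me3 that the young list shared were wider and higher, with medians of 729 bp, 3.42 and 2.17. A wide region meets the young list more easily, and this part of the difference was not tested. Intervals over regions cover counting error only, since neighboring regions are not independent and no replicate values were used.

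H3K27me3 covered most of these regions in full. It lay over the whole length of 4425 of them (69.9%) and over at least 50% of the length of 5628. At the lower edge of the choice, 21 regions shared under 10 bp with H3K27me3, the smallest overlap being 1 bp. Just outside it, 224 gained regions lay within 100 bp of an H3K27me3 region, the nearest abutting it. On the other side of the rule, the gained region closest to a young H2AK119ub1 region was separated from it by 1 bp.

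Wider gained regions were more often inside H3K27me3. The share was 29.0% of gained regions under 300 bp, 39.9% from 300 to under 500 bp, 65.3% from 500 to under 1000 bp and 92.2% (89.6 to 94.3, Wilson 95% interval) of the 503 regions of 1000 bp and over. A wide region has more bases with which to meet another list, and this part of the rise was not tested.

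**Figure D1:**
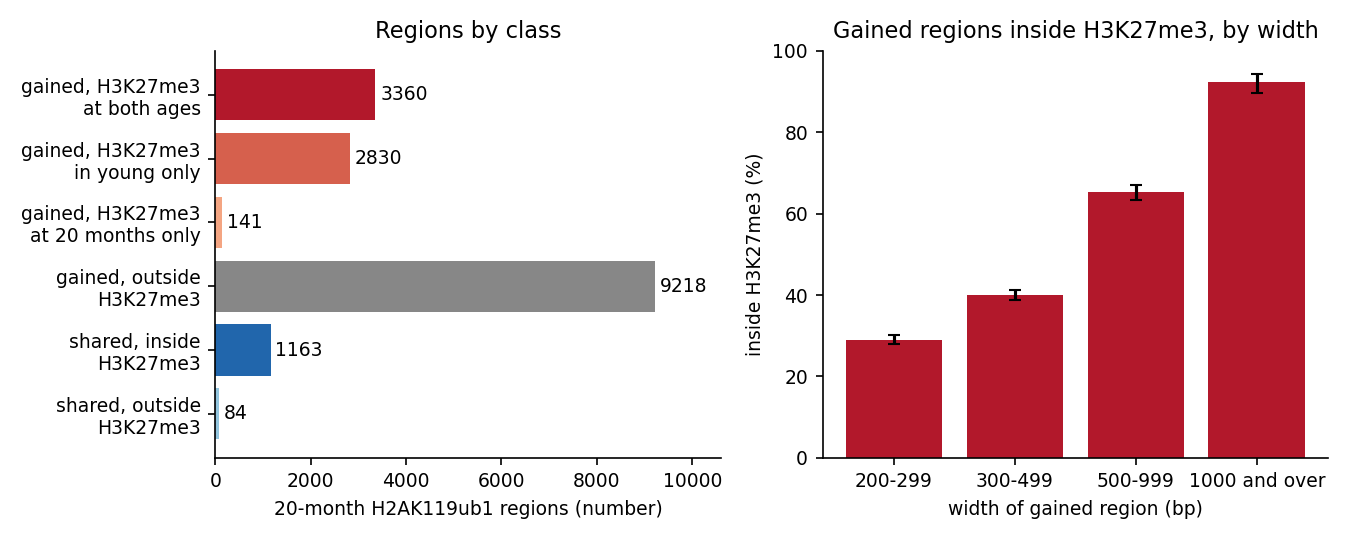
Left, the number of aged H2AK119ub1 regions on chromosomes 1 to 19 in each class, by overlap with the young H2AK119ub1 list (gained or shared) and with H3K27me3. Right, the percentage of gained regions inside H3K27me3 by region width, with Wilson 95% intervals. Regions of 1000 bp and over reach 92.2%, against 29.0% under 300 bp.

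Nearly all gained regions inside H3K27me3 overlapped that of young HSCs, and most of them also that of aged HSCs. Of the 6331 regions, 3360 (53.1%) overlapped H3K27me3 at both ages, 2830 (44.7%) in young HSCs only and 141 (2.23%) in aged HSCs only. The shared regions inside H3K27me3 divided differently, with 81.3% (78.9 to 83.4) on H3K27me3 of both ages and 17.8% on that of young HSCs only. The shared regions were wider, with a median of 729 bp against 386 bp, and the part of width in this difference was not tested. The H3K27me3 lists themselves differed in size, with 50640 regions over 35.6 Mb in young HSCs and 15926 regions over 8.42 Mb in aged HSCs. Regions on H3K27me3 of both ages were wider (median 448 bp) than those on H3K27me3 of young HSCs only (332 bp), whereas those on young-only H3K27me3 were more often at a promoter, at 32.9% (31.2 to 34.7) against 26.8% (25.3 to 28.3). The 141 regions on H3K27me3 of aged HSCs only had the lowest CpG content, with a median ratio of observed to expected CpG of 0.218 (0.194 to 0.261), against 0.338 on H3K27me3 of both ages.

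Seen from the H3K27me3 regions, wide domains held a gained region most often. A wide domain has more bases with which to meet a gained region, and this part of the difference was not tested. In the young list, 4376 H3K27me3 regions (8.64%) held at least 1 gained region. They had a median width of 1390 bp against 389 bp for the others, and a median fold enrichment of 3.48 against 3.09. The share that held a gained region was 2.5% below 500 bp, 21.9% from 1 to 2 kb and 51.2% from 2 to 5 kb. Of the 490 domains of 5 kb and over, 458, or 93.5% (90.9 to 95.3), held a gained region. Young H2AK119ub1 was already listed in 336 of these 490 widest domains (68.6%), but in 18.7% of those from 2 to 5 kb and in 4.80% of those from 1 to 2 kb. The largest number of gained regions in a single young domain was 16, and 3289 of the 4376 domains (75.2%) held 1.

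Within each width class below 5 kb, young H3K27me3 regions that held a gained region were also more often listed for H3K27me3 in aged HSCs. From 1 to 2 kb the share was 62.5% of those with a gained region and 40.4% of those without, and from 2 to 5 kb it was 90.8% and 76.1%. Below 500 bp the shares were 17.5% and 5.25%. At 5 kb and over nearly all were listed at both ages, at 99.8% and 100%. Gained regions were spread almost evenly along these widest domains. When the way from the nearer end to the middle was divided into 5 equal steps, each step held between 19% and 21.4% of the 1576 gained regions there.

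**Figure D2:**
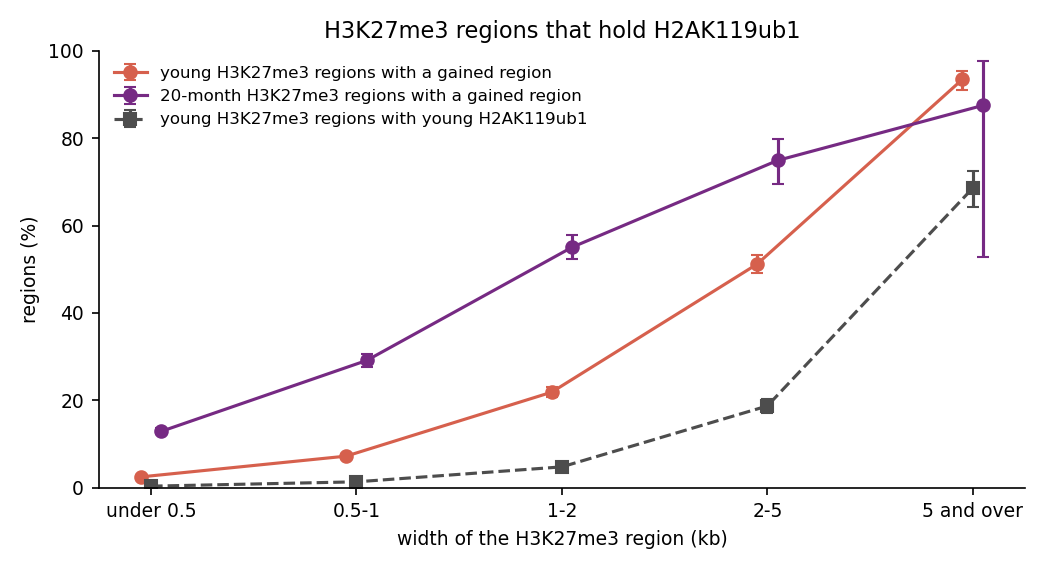
Percentage of H3K27me3 regions that held a gained H2AK119ub1 region, by the width of the H3K27me3 region in kb, for the young list and the aged list, and percentage of young H3K27me3 regions with young H2AK119ub1. Bars are Wilson 95% intervals. All 3 shares rise with width, and the aged class of 5 kb and over holds only 8 regions. A wide region has more bases with which to meet another list, and this part of the rise was not tested.

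Many gained regions lay close to H2AK119ub1 that young HSCs already carried. A young H2AK119ub1 region was within 1 kb of 1101 gained regions inside H3K27me3 (17.4%) and from 1 to 10 kb away from 2004 (31.7%). At the other end, 2190 (34.6%) were 100 kb or more from any. Gained regions outside H3K27me3 lay within 1 kb of young H2AK119ub1 in 1.37% of cases and at 100 kb or more in 64.3%. The 1101 regions next to young H2AK119ub1 were wider (median 450 bp) than all gained regions inside H3K27me3, and 261 of them (23.7%) were at a promoter.

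The regions came in clusters. When regions less than 10 kb apart were joined, they formed 2622 clusters, and 1369 regions (21.6%) stood alone. There were 285 clusters of 5 or more regions, which held 2489 regions (39.3%), and 83 clusters of 10 or more. The largest lay over the HoxC genes, whose homeodomain factors set position along the body axis, at chr15:102900320-103071360. It held 49 gained regions with a summed length of 26867 bp. In this stretch H2AK119ub1 covered 25.7 kb in the young list and 71.3 kb in the aged list, while H3K27me3 covered 161 kb and 81.9 kb. Over chromosomes 1 to 19 the young and aged H2AK119ub1 lists covered 0.941 and 7.19 Mb. The H2AK119ub1 cover of this stretch, and of the HoxD and Cdkn2a stretches described next, grew by a smaller factor than the whole list. The young and aged H3K27me3 lists covered 35.6 and 8.42 Mb. The H3K27me3 cover of these stretches fell by a smaller factor than the whole list. The cluster over Evx2 and the HoxD genes held 35 gained regions, and there H2AK119ub1 went from 13.4 kb to 46.2 kb and H3K27me3 from 95.9 kb to 60.9 kb.

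The next clusters lay over single developmental genes or gene pairs. Zic1 and Zic4, zinc finger factors of the hindbrain, had 28 gained regions with 2.96 kb of H2AK119ub1 in the young list and 23.2 kb in the aged list. Hand2, a basic helix-loop-helix (bHLH) factor of heart and limb, had 23 gained regions with 1.93 kb and 14.0 kb. Pax6, the paired-type homeobox factor of the eye, had 20 gained regions with 2.31 kb and 22.1 kb. Nr2f2 and Nr2f1, orphan nuclear receptors of vessels and brain, had 19 each. Over Zic1 and Zic4 and over Pax6 the H2AK119ub1 cover grew by a larger factor than the whole list. Over Hand2, Nr2f2 and Nr2f1 it grew by a smaller one.

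The Ink4a-Arf locus was among the 8 largest clusters. Cdkn2a, which encodes the inhibitors p16 and p19, and its neighbor Cdkn2b, which encodes p15, lay under 19 gained regions at chr4:89271880-89310797. H2AK119ub1 was listed there as 8 regions over 3.83 kb in young HSCs and as 24 regions over 15.3 kb in aged HSCs. H3K27me3 covered 36.8 kb of the 38.9 kb in young HSCs and 21.1 kb in aged HSCs, and no H3K4me3 region was listed at either age. Of the 24 aged regions, 5 were shared with the young list. In each of the 8 largest clusters the aged H3K27me3 list had more regions than the young list, with 21 regions against 4 at Cdkn2a. In each it also covered less of the sequence, but this cover fell by a smaller factor than over the whole H3K27me3 lists.

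Most of the widest gained regions lay at loci of developmental factors. The region of 3636 bp at chr2:122298355-122301990 covered the promoters of Duoxa2 and of Duox2, whose product makes hydrogen peroxide in the thyroid. This region overlapped H3K4me3 at both ages. Regions of 3556 bp near Nr2f2 (33637 bp from its start), 3421 bp within Tbx15, 3287 bp at Vax2, 3085 bp at Ebf2, 3044 bp in an intron of Pax6, 2972 bp at Dlx6 and 2967 bp at Foxd1 followed. All 8 of these lay on H3K27me3 of both ages, and for all 8 the young domain (2658 to 20748 bp) was at least 3 times as wide as the widest aged one (804 to 2694 bp).

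The gained regions with the highest −log10 q were narrower. The highest was a region of 257 bp at chr10:22820300-22820556, 126 bp from the start of Tcf21, a bHLH factor of mesenchyme, with a fold enrichment of 5.25 and a −log10 q of 6.17. An intergenic region of 333 bp, 14764 bp from Nhlh2, a neural bHLH factor, had a fold enrichment of 4.72. The region at Hoxb13 was wider, with 1712 bp, a fold enrichment of 4.63 and a young H3K27me3 domain of 21437 bp. The others lay in Cfdp1, at Foxc1 (in its UTR), Ovol1, Hmx1, Irx4 and Prdm8, with −log10 q from 4.93 to 5.19. Those at Foxc1 and Irx4 were on H3K27me3 of young HSCs only.

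At the level of whole genes, Tead1, a partner of the Hippo pathway cofactors, held 33 gained regions within its body and 5 kb on either side, over 14095 bp. Fam19a4 held 22, Hoxc5 21, Hoxd3 18 and Pax2 16. Egflam, Fgfr2 and Tjp1 held 18 each over longer bodies. The model Gm20388, with 40, spans 4435 kb across many other genes, so its count does not belong to 1 locus, and the model of Fgfr2 spans 2961 kb.

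The gained regions inside H3K27me3 were more often at promoters than the other gained regions. A promoter, here the 1 kb before and after the start of any protein-coding transcript, was met by 1860 of them, or 29.4% (28.3 to 30.5). Over all 16796 aged regions the share was 23.0%, and over gained regions outside H3K27me3 it was 18.3% (17.5 to 19.1). The shared regions inside H3K27me3 stood at 25.8% (23.4 to 28.4). Of the rest of the gained regions inside H3K27me3, 31.0% lay in introns, 26.8% between genes, 6.11% over coding exons, 2.97% over UTRs and 3.73% over other exons. Outside H3K27me3, introns held 42.9%.

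This difference narrowed among wide regions. Under 300 bp, 23.6% (21.8 to 25.5) of gained regions inside H3K27me3 and 15.3% (14.3 to 16.3) of those outside were at a promoter. From 300 to under 500 bp they were 28.8% and 19.3%. From 500 to under 1000 bp the shares were 35.5% (33.2 to 37.8) and 30.5% (27.5 to 33.7), and at 1000 bp and over they were 36.2% and 35.9%, where only 39 regions lay outside.

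Many of the regions lay close to start sites. The median distance to the nearest start site was 2969 bp (2759 to 3155), against 10503.5 bp for gained regions outside H3K27me3, and 318 regions (5.02%, 4.51 to 5.59) contained a start site, against 1.55% (1.32 to 1.82) of those outside. Of the 3721 regions centered within 5 kb of a start site, 59.7% (58.2 to 61.3) were downstream and 18.5% (17.3 to 19.8) were within 500 bp of it. Within 500 bp lay 16.3% of the gained regions outside H3K27me3 and 9.90% of the shared regions inside it that were as near. Downstream lay 61.7% (60.1 to 63.3) and 54.6% (50.9 to 58.2) of these 2 groups. The highest share fell from 500 to 1000 bp downstream, with 506 regions (7.99%), followed by 399 regions (6.30%) in the next 500 bp. Just upstream, within 500 bp, there were 359 (5.67%). Gained regions outside H3K27me3 also peaked from 500 to 1000 bp downstream, at 6.05%, whereas the shared regions inside H3K27me3 had 2.32% in the first 500 bp downstream and more on either side.

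**Figure D3:**
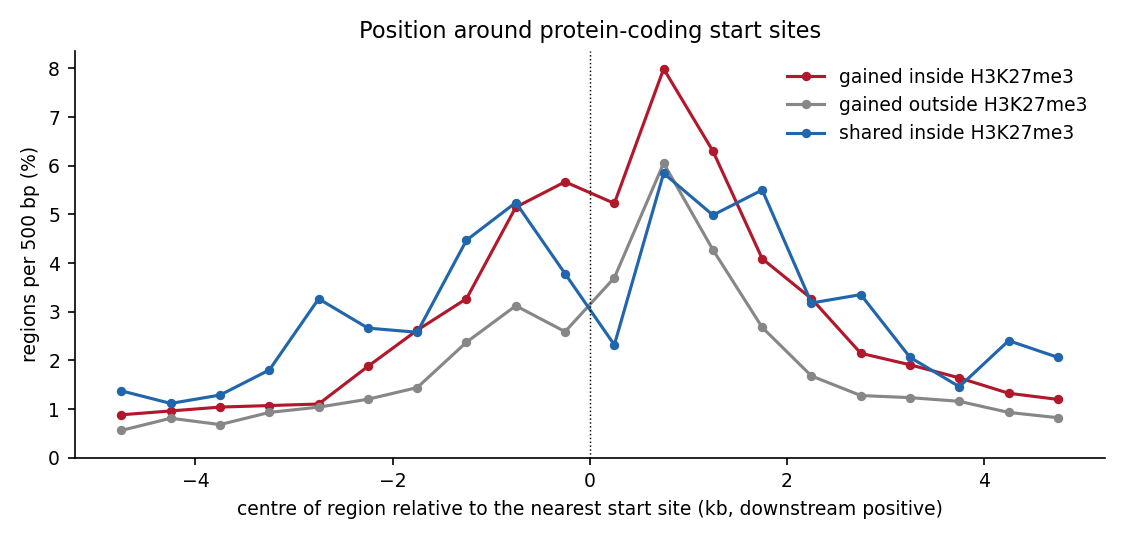
Percentage of regions of each class whose center fell in each 500 bp step around the nearest protein-coding start site, with positions downstream as positive kb. Regions gained inside H3K27me3 peak at 7.99% from 500 to 1000 bp downstream, and the shared regions dip to 2.32% just after the start site.

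The sequence under the regions was richer in CpG, though not in G and C. The median ratio of observed to expected CpG was 0.318 (0.310 to 0.328), against 0.205 (0.201 to 0.209) for gained regions outside H3K27me3 and 0.338 (0.320 to 0.358) for the shared regions inside it. The median GC content was 51.0% both inside and outside. A window of 200 bp with at least 50% GC and a CpG ratio of at least 0.6, the usual description of a CpG island, was found in 28.0% of the gained regions inside H3K27me3 and in 8.03% of those outside. Within 1 kb of the region it was found for 70.8% (69.7 to 71.9) and 40.4% (39.4 to 41.4). The difference was present in each width class. Under 300 bp, where a region has little room for such a window, 12.6% (11.3 to 14.1) and 5.28% (4.70 to 5.94) held it.

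Short sequence motifs were also counted. In the central 200 bp of each region, read on both strands, CGCG was present in 16.3% (15.4 to 17.2) of the gained regions inside H3K27me3, in 7.40% of those outside, in 12.6% (10.9 to 14.7) of the shared regions inside and in 11.1% of all aged regions. CANNTG, the E-box bound by bHLH factors, was less frequent inside, at 61.0% (59.8 to 62.2), than outside, at 66.6% (65.7 to 67.6), with 63.9% over all aged regions. GAGAGA was present in 21.5% (20.5 to 22.5) inside, 23.4% (22.6 to 24.3) outside and 22.7% of all aged regions, and ACACACAC in 5.84%, 6.24% and 6.10%. CCATNTT, the core bound by YY1, was present in 10.7% inside, 11.4% outside and 11.0% of all aged regions. TGTGGT, the core bound by RUNX factors of blood, was present in 11.4% inside, 14.2% (13.5 to 14.9) outside and 13.0% of all aged regions. AGATAA, bound by GATA factors, was present in 8.13%, 8.64% and 8.40%. These are matches of letters, not sites shown to be bound. Regions with at least 50% of their bases masked as repeats in the reference made up 2.53% of those inside and 4.25% of those outside.

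**Figure D4:**
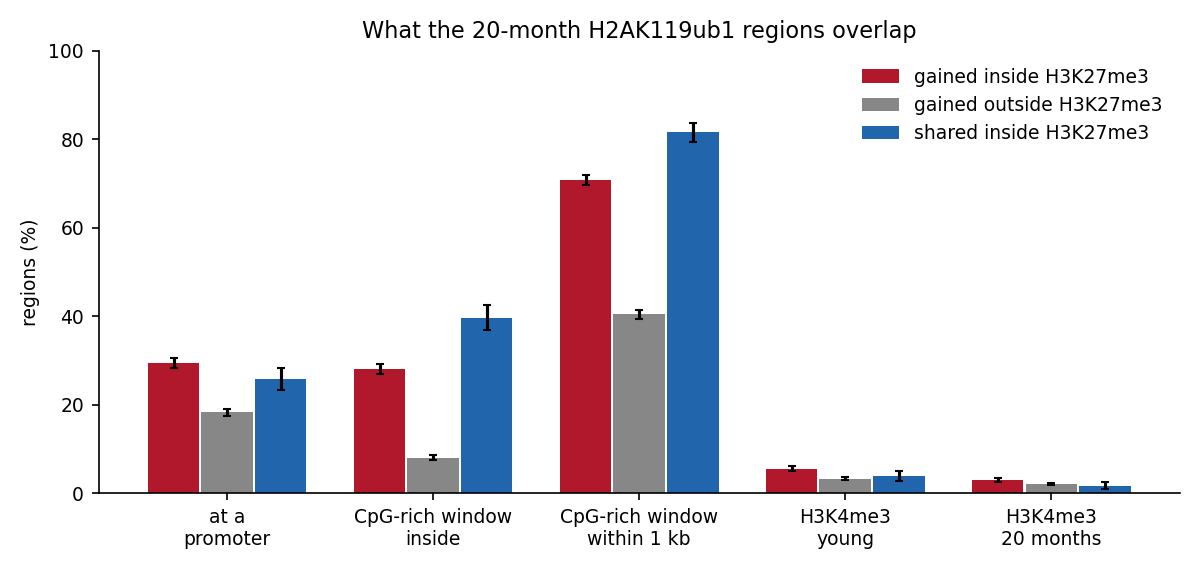
Percentage of regions at a promoter, with a CpG-rich window of 200 bp inside the region or within 1 kb of it, and overlapping H3K4me3 of young and of aged HSCs, for the regions gained inside H3K27me3, gained outside it and shared inside it. Bars end at the share and lines give Wilson 95% intervals. A CpG-rich window was inside 28.0% of the regions gained inside H3K27me3 and 8.03% of those outside, and within 1 kb of 70.8% and 40.4%.

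H3K4me3 was rare on the gained regions. It was listed in young HSCs at 347 of the 6331, or 5.48% (4.95 to 6.07), and in aged HSCs at 189, or 2.99% (2.59 to 3.43). Over all aged H2AK119ub1 regions the shares were 4.15% and 2.35%, and over gained regions outside H3K27me3 3.31% and 2.01%. At both ages it was listed on 83 regions. The width of the region bore on these shares. Under 300 bp, H3K4me3 of young HSCs met 2.26% of gained regions inside H3K27me3 and 2.63% of those outside, and at 1000 bp and over it met 16.2% (13.1 to 19.8) of those inside. The H3K4me3 list of young HSCs was the longer one, with 11279 regions on these chromosomes against 6686 in aged HSCs.

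Of 20807 protein-coding genes on chromosomes 1 to 19, 1414, or 6.80%, had a gained region inside H3K27me3 at a promoter. Nearly all of them, 1396, had H3K27me3 at a promoter in young HSCs, which the choice of the regions largely fixes, and 926 (65.5%) had it in aged HSCs. H2AK119ub1 was already listed at a promoter of 187 of the 1414 genes (13.2%, 11.6 to 15.1) in young HSCs, so that for these the gain was a further region at a gene that already carried the mark. H3K4me3 was listed at 378 of the genes (26.7%) in young HSCs and at 205 (14.5%) in aged HSCs. In young HSCs 371 of the genes (26.2%) were bivalent, and in aged HSCs 123 (8.70%) were. Over all protein-coding genes, H3K4me3 went from 35.2% to 24.3% and bivalence from 3.04% to 0.822%. Bivalence requires H3K27me3, which the choice of the regions largely fixes, so nothing is read from its shares against those of all genes. Among all 3264 genes with H3K27me3 at a promoter in young HSCs, 633 were bivalent.

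Among genes with H3K27me3 at a promoter in young HSCs, those that also carried H3K4me3 had a gained region more often. Of 633 such bivalent genes, 371, or 58.6% (54.7 to 62.4), had one, against 1025 of 2631 genes with H3K27me3 and no H3K4me3, or 39.0% (37.1 to 40.8). Over all 3264 genes with H3K27me3 in young HSCs the share was 42.8% (41.1 to 44.5). The bivalent genes also had wider H3K27me3 regions, with a median of 1672 bp against 1264 bp. Within width classes the order was kept. It was 32.7% (26.7 to 39.3) and 20.6% (18.3 to 23.1) where the widest H3K27me3 region at the promoter was under 1 kb, and 59.3% (51.6 to 66.5) and 44.1% (40.5 to 47.8) from 1 to 2 kb. It was 76.8% (70.4 to 82.2) and 52.4% (48.5 to 56.2) from 2 to 5 kb. At 5 kb and over the shares were 84.1% and 76.8% with overlapping intervals. Among genes with 1 start site, the shares were 56.3% (49.8 to 62.5) and 37.9% (35.3 to 40.5). Genes that share a promoter are counted separately, and with 1 list per mark and age these intervals are no test of the marks.

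Genes that kept H3K27me3 stood above those that did not. Of 1638 genes with H3K27me3 at a promoter at both ages, 918, or 56.0% (53.6 to 58.4), had a gained region, against 478 of 1626, or 29.4% (27.2 to 31.7), of those listed in young HSCs only. The median width of the young H3K27me3 region was 2165.5 bp in the former and 732 bp in the latter.

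Lists of genes with known roles were set beside the share of 6.80% over all genes. Since a gained region here requires H3K27me3, counts are also given over the genes of the list with H3K27me3 at a promoter in young HSCs, for which the share over all genes was 42.8%. Some genes stand in more than 1 list. The shares of several lists depended on how regions were counted. When H2AK119ub1 regions within 1 kb of each other were joined in each list, 1237 genes in place of 1414 had a gained region. The paired-type list then fell from 78.7% to 31.9%, the NKX and DLX list from 62.1% to 25.9%, the Hox genes from 48.7% to 25.6%, the T-box genes from 50.0% to 25.0%, the SOX genes from 33.3% to 11.1% and the forkhead genes from 34.2% to 21.1%. The bHLH list, at 37.8%, the WNT list, at 36.8%, and the myeloid and erythroid list, at 35.0%, then stood above the paired-type list, so no order of the lists is given.

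Homeobox genes of development often had a gained region, and their young H3K27me3 regions were wide. The widest at a promoter had a median of 7118 bp in the paired-type list and 5973.5 bp in the NKX and DLX list. Among Hox genes it was 11191 bp. Of all 263 genes with 5 kb and over, 207, or 78.7% (73.4 to 83.2), had a gained region. Among genes with young H3K27me3 the shares of these lists were 80.4%, 66.7% and 65.5%. The part of width in these shares was not tested. Of 47 genes of the PAX, LIM, sine oculis-related and paired-type families, 37 had a gained region at a promoter, or 78.7% (65.1 to 88.0), and these were 37 of the 46 with young H3K27me3. Pax6 had 6 gained regions at its promoters, the widest of 2219 bp. Pax2, the factor of kidney and ear, had 2, the widest of 1409 bp. At Alx1, a factor of the face, a region of 1733 bp was gained, and at Isl2, a LIM factor of motor neurons, a region of 311 bp at a fold enrichment of 4.30. Of 58 genes of the NKX, DLX, IRX, MSX and related families, 36 (62.1%) had a gained region, 36 of the 54 with young H3K27me3. Among them were Dlx1 with 1848 bp, Bsx with 1670 bp, Msx2 with 1557 bp and Irx4 with 315 bp at a fold enrichment of 4.76.

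Of 39 Hox genes, 19 (48.7%, 33.9 to 63.8) had a gained region at a promoter, 19 of the 29 with young H3K27me3. They were unevenly spread over the 4 clusters, with 2 in HoxA, 5 in HoxB, 5 in HoxC and 7 in HoxD. Over the whole gene clusters with 5 kb on either side, a window chosen after these values were seen, 13 gained regions were listed in HoxA, 33 in HoxB, 37 in HoxC and 33 in HoxD. H3K4me3 in young HSCs covered 6.41 kb of HoxA and 5.41 kb of HoxB, but 0.894 kb of HoxC and 0.421 kb of HoxD. H3K27me3 in young HSCs covered 34.9 kb of HoxA, 69.7 kb of HoxB, 121 kb of HoxC and 97.1 kb of HoxD. Hoxd12 and Hoxd11, limb genes at the end of HoxD, had regions of 1854 and 1759 bp, with H3K27me3 at both ages and no H3K4me3.

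Other families of developmental factors were met too. Gained regions were at the promoters of 8 of 16 T-box genes (50.0%), 8 of the 12 with young H3K27me3, among them Tbx1 with 1734 bp and Tbr1 with 1238 bp at a fold enrichment of 4.11. Of 37 bHLH genes, 17 (45.9%) had one, 17 of the 28 with young H3K27me3, including Olig2, the factor of oligodendrocytes and motor neurons, with 2527 bp, and Neurod2 with 221 bp at a fold enrichment of 4.23. Of 38 forkhead genes, 13 (34.2%) had one, 13 of the 22 with young H3K27me3, including Foxb2 with 2451 bp, Foxc1 with 2222 bp and Foxa2, the endoderm factor, with 1735 bp. Of 18 SOX genes, 6 had one, 6 of the 11 with young H3K27me3, with Sox6 at 1759 bp and Sox7 at 1640 bp. Of 5 GATA genes on these chromosomes, Gata4, Gata5 and Gata6, the factors of heart and endoderm, had a gained region and were the 3 with young H3K27me3, and Gata2 and Gata3 had none.

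Signaling ligands were also met. Of 38 genes of the WNT ligands, Frizzled receptors and their secreted antagonists, 16 (42.1%, 27.9 to 57.8) had a gained region at a promoter, 16 of the 29 with young H3K27me3. Wnt1 had the widest, with 2707 bp, followed by Wnt11 with 2010 bp. Fzd10 was the only Frizzled receptor among them, and Dkk1, Dkk3 and Sfrp5 were the antagonists. Of 48 genes of the transforming growth factor (TGF)-beta and bone morphogenetic protein (BMP) pathways, 10 (20.8%) had one, 10 of the 24 with young H3K27me3 (41.7%), including the ligands Bmp4, Bmp7 and Gdf6 and the antagonists Nog (1337 bp) and Chrd.

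H3K27me3 was at a promoter in young HSCs for 2 of 20 HSC factors, 9 of 22 lymphoid factors and 8 of 20 myeloid and erythroid factors. Over all protein-coding genes the share was 15.7%. Most of the genes of these lists with young H3K27me3 had a gained region. Of 20 transcription factors that maintain HSCs, 2 had a gained region at a promoter, or 10.0% (2.79 to 30.1). These were Erg, with 1466 bp and young H2AK119ub1 at a promoter, and Gfi1, with 846 bp, and they were the only 2 of the list with H3K27me3 at a promoter in young HSCs. Of 22 lymphoid factors, 7 (31.8%, 16.4 to 52.7) had one. They were Lef1 with 1200 bp, Ikzf3, Pax5 and Ebf1 of B cells, Bcl11b of T cells, Runx3 and Eomes, 7 of the 9 with young H3K27me3. Of 20 myeloid and erythroid factors, 7 (35.0%, 18.1 to 56.7) had one, 7 of the 8 with young H3K27me3. Egr2 had 994 bp and Irf4 949 bp, and Cebpa, the factor of granulocytes, had 372 bp and H3K4me3 at both ages. Of the 7 myeloid and erythroid genes with a gained region, Gfi1 and Egr2 had H3K27me3 at a promoter in aged HSCs, as did all 7 of the lymphoid genes.

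Of 8 CDK inhibitors, 3 had a gained region, and these were the 3 with young H3K27me3. They were Cdkn2a with 3 regions, the widest of 386 bp, Cdkn2b with 545 bp and Cdkn2c, which encodes p18, with 232 bp at a fold enrichment of 3.71. The first of these already had young H2AK119ub1 at a promoter. Genes of the Polycomb system itself had some. Of 31 subunits of PRC1 and PRC2, 4 (12.9%, 5.13 to 28.9) had one, namely Cbx8 with 1888 bp, Cbx2 with 534 bp, Epop with 301 bp and Pcgf1 with 468 bp, the last with no H3K27me3 listed at a promoter in either age. The other 3 were among the 5 with young H3K27me3. Of 10 genes of H2A deubiquitination, 1 had one, Asxl3 with 422 bp, the only 1 of the list with young H3K27me3. Of 20 genes known to rise in aged HSCs, 1 had one (5.0%, 0.888 to 23.6), near the 6.80% of all genes. This was the metallothionein gene Mt1, with 647 bp, 1 of the 3 with young H3K27me3.

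Families of neuronal genes stood above the 6.80% of all genes, and against the share among genes with H3K27me3 they differed. Of 91 potassium channel genes, 23 (25.3%, 17.5 to 35.1) had a gained region, 23 of the 62 with young H3K27me3 (37.1%, 26.2 to 49.5). Of 47 glutamate and GABA receptor genes, 12 (25.5%) had one, 12 of 35 with young H3K27me3. For the adrenergic, dopamine, serotonin and muscarinic receptors the counts were 10 of 32 and 10 of 25. These 3 shares lay below the 42.8% of all genes with young H3K27me3, with intervals that included it. Sodium and calcium channel genes lay above it, with 14 of 39 and 14 of 23 (60.9%, 40.8 to 77.8), an interval that also included it, and with Cacnb3 at 1343 bp. Collagen genes had 12 of 42 and 12 of 26 (46.2%), with Col2a1, the collagen of cartilage, at 1245 bp. The clustered protocadherins, adhesion molecules of neurons, had none at a promoter among 57 genes, although 33 of the 57 had a gained region within the gene or 5 kb of it, and of the 57, 14 had young H3K27me3 over regions with a median width of 374.5 bp. The widest young H3K27me3 region at a promoter had a median of 7118 bp in the paired-type homeobox list, 1737.5 bp among potassium channels and 606.5 bp among myeloid and erythroid factors, 7 of 8 of which had a gained region.

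Genes that every cell uses had no gained region inside H3K27me3 at a promoter. This held for 79 genes of the cytosolic ribosome, 77 of the mitochondrial ribosome and 38 of the proteasome. None of them had H3K27me3 at a promoter at either age, so the choice of the regions largely fixed these counts. H2AK119ub1 of aged HSCs was listed at a promoter of 5 cytosolic and 4 mitochondrial ribosome genes and 0 proteasome genes. The upper limits of the Wilson intervals for a gained region were 4.64%, 4.75% and 9.18%, and nothing is read from them.

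**Figure D5:**
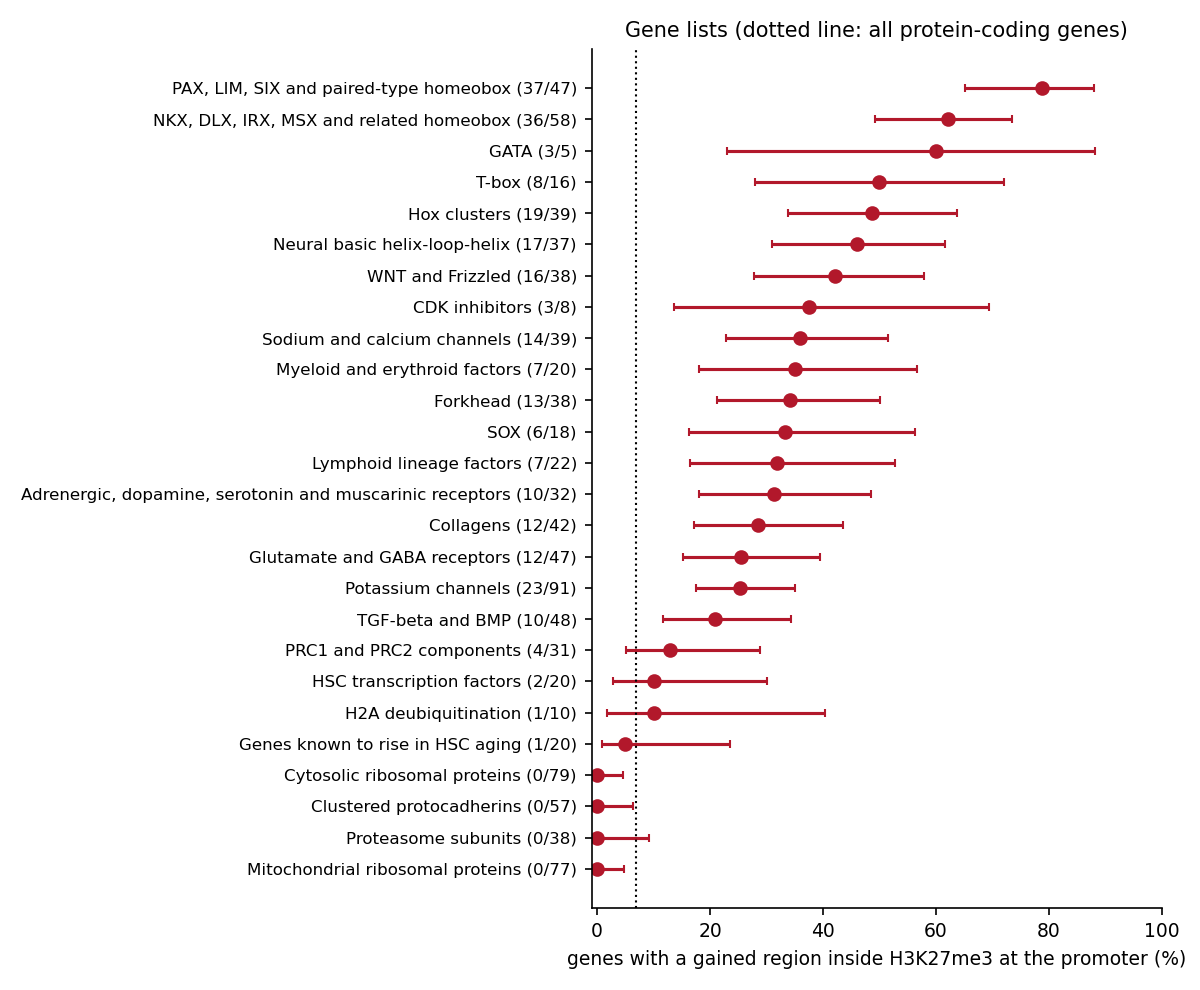
Percentage of the genes of each list with a region gained inside H3K27me3 at a promoter, with the numbers of genes in brackets and Wilson 95% intervals as bars. The dotted line is the 6.80% of all protein-coding genes. The homeobox lists lie at 48.7% to 78.7% (25.6% to 31.9% with regions within 1 kb joined). The lists of ribosome and proteasome genes, without H3K27me3 at any promoter, lie at 0.

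The regions were found on every chromosome from 1 to 19. Their density went from 1.14 per Mb on chromosome 16 to 4.33 per Mb on chromosome 11. The share of gained regions that lay inside H3K27me3 was lowest on chromosome 16, at 29.3% (25.0 to 34.1), and highest on chromosome 13, at 53.4% (49.6 to 57.3), with the other chromosomes between.

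The labelled cells were checked by H3K4me3 at promoters of marker genes. It was listed at 7 of 10 HSC markers at each age, including Mecom, Hlf, Meis1, Procr and Tal1, and at none of 5 T cell or 6 myeloid markers at either age. Of 4 B cell markers it was listed at Ebf1 at both ages, and of 5 erythroid markers at 2 in young HSCs only. The list limits also differed between the ages. The lowest −log10 p in the young H2AK119ub1 list was 4.18, and 1029 of the 6331 gained regions (16.3%) lay below it. At a −log10 q from 1.4 to 1.6, the H2AK119ub1 lists had a median −log10 p of 4.86 (young) and 4.33 (aged), and the H3K27me3 lists one of 3.59 (young) and 4.31 (aged). The part of these limits in the number of gained regions was not tested beyond the alternatives given at the end, and sequencing depth is not part of the lists. A difference in the mark and a difference in how readily it was called thus cannot be told apart.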

How the data were processed

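ChIP-seq of sorted HSCs was analysed from 6 pooled lists, 1 per mark and age. Per the labels and the study's methods, the authors aligned reads to mm10 with Bowtie2 and called peaks with MACS2. The study gives version 2.2.6 of MACS2 for ATAC-seq and in its list of software. Its ChIP-seq methods name neither a peak caller nor an antibody against H2AK119ub1. The peak names carry a broad threshold of 0.1 for H2AK119ub1 and H3K27me3 and a q-value threshold of 0.05 for H3K4me3. The deposited values are a linear fold enrichment (ratio) over background and the −log10 of p-value and q-value, which are averages over a broad region. It is not certain that both libraries entered each broad list, because the names of the broad regions carry a single number. They were used to describe, rank and filter regions. Depth is not part of the lists, so its effect on the number of regions is unknown.

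Overlaps of at least 1 bp were computed in Python 3.11.15 (numpy 2.4.6, pandas 2.3.3) and checked with bedtools 2.31.1, which gave the same 6331 regions. The overlap code was tested on simulated data. Start sites and genes (39540 and 20807 on chromosomes 1 to 19) came from GENCODE M21 basic, and sequence from GRCm38 (pysam 0.24.0, samtools 1.23.1). A region was assigned to a promoter first, then a coding exon, UTR, other exon or intron. Wilson 95% intervals (scipy 1.17.1) cover counting error over regions or genes only. No test was made, as there were no replicate values. Plots were drawn with matplotlib 3.10.9.

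Named were the 10 widest and the 10 highest regions by −log10 q, the 10 genes with most regions within 5 kb, the largest clusters, and genes of 26 lists with a gained region at a promoter, of which examples are given. The regions, lists and motifs were chosen with earlier results of these data known. Peaks on X, Y and scaffolds were set aside. Some genes that these rules name are not reported here.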

Additional observations from a re-analysis of the deposited data

How the results depend on the processing

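No paired analysis was possible because the libraries of a mark were pooled into a single list at either age, and for the same reason no library could be left out. As reported, 6331 regions made up 40.7% of the gained ones, 29.4% were at a promoter, 2.99% met H3K4me3 of aged HSCs, 1414 genes had one at a promoter and the median CpG ratio was 0.318. H3K27me3 over at least 50% of the region gave 36.2% of the gained regions, young H2AK119ub1 within 1 kb counted as shared gave 36.5% with 30.6% at a promoter, and H3K27me3 of young HSCs alone gave 39.8%. With a −log10 q of at least 2, 2405 regions remained (53.3% of the gained, 31.4% at a promoter, 4.12% with H3K4me3, 670 genes, CpG ratio 0.358). With as many top aged regions as the young list holds, 1240 remained (58.2%, 31.5%, 4.52%, 360 genes, 0.356). With regions of each list within 1 kb joined, 3850 remained (31.5%, 34.4%, 3.53%, 0.308). H3K27me3 of aged HSCs alone gave 3501 (22.5%, 26.5% at a promoter, 755 genes, 0.332). A promoter window of 2.5 kb gave 47.2% at a promoter, and a −log10 q of at least 4 for H3K4me3 gave 1.47%. Chosen after seeing the data, a −log10 p no lower than the lowest of the young list left 5302 regions (43.9% of the gained, CpG ratio 0.328), and a −log10 p of at least 5 in both H2AK119ub1 lists left 2853 (53.5%, 31.2%, 3.86%, 778 genes, 0.354). Of 234 values of the 26 gene lists under 9 alternatives, 57 lay outside the interval of the value as reported. The paired-type homeobox list ranged from 31.9% to 78.7%, the NKX and DLX list from 25.9% to 62.1% and the Hox genes from 23.1% to 51.3%. The clustered protocadherin list stayed at 0. So did the ribosome and proteasome lists, where no promoter had H3K27me3 at either age.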
